A study of Mus musculus with 63 samples.

Results

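The data described here are the heart RNA levels of 10 immediate early genes, the genes whose transcripts appear within minutes of a stimulus without new protein synthesis. The members were taken by symbol from the deposited count table and are Fos, Fosb, Jun, Junb, Atf3, Egr1, Nr4a1, Ier2, Ier3 and Zfp36, 10 of the 19220 genes listed. All 10 were among the 16425 genes that passed the filter on low counts. Libraries came from 63 hearts of the 8 founder strains of the Diversity Outbred mice, labelled 129, AJ, B6, NOD, NZO, PWK and WSB (8 libraries each) and Cast (7 libraries). All mice received a diet high in fat and sugar, with 45% fat per the labels, and there was no group on another diet. The labels give no agent, dose, genotype other than the strain, sex or age. That libraries of a strain are separate animals rests on title identifiers alone, so p-values measure the spread between these libraries.

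Immediate early genes are held ready for rapid induction by growth factor, stretch, calcium and stress signals, which reach their promoters through factors such as SRF with its Elk partners and CREB. Most encode transcription factors that act on a second wave of genes, and several of their transcripts are short-lived. In the heart they are known for induction by pressure load, adrenergic drive and ischaemia.

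Levels are given as CPM (read counts scaled to a common library total) after scaling by trimmed means (TMM). The libraries held 21.8 M to 42.9 M counts each, with a median of 30.4 M. The heart label was borne out by the cardiomyocyte markers Myh6, Actn2, Tnnt2, Ryr2, Pln and Tnni3, which summed to 26600 to 57900 CPM, with Myh6 alone at 13800 to 40600 CPM. The low end of the sum was WSB_1 alone, against 46690 to 53620 CPM in the other WSB libraries. WSB_1 was also the highest WSB library for Fos, Ier2 and Ier3, and what set it apart was not tested. In bulk tissue, fewer cells of a type and less RNA per cell cannot be told apart. Library 129_7 stood apart for these genes: it held the highest level of all 63 libraries for 6 members (Fos, Fosb, Jun, Atf3, Egr1 and Ier2) and the highest of the 129 strain for all 10. Its 8 heat shock transcripts summed to 6592 CPM, against 2265 to 2874 CPM in the other 7 libraries of that strain. Results that end without it are marked beside their values.

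Per kilobase of merged exon (GENCODE M21), Jun was the most abundant member, at a mean of 26.3 CPM per kb over the 63 libraries, and Fosb the least, at 2.19 CPM per kb. The other members lay between 8.06 CPM per kb for Atf3 and 18.2 CPM per kb for Nr4a1. Read counts were ample for each call: the lowest count of any member in any library was 17, for Fosb in Cast_5. Jun overlaps the antisense gene Junos, and its deposited count was not a whole number in 41 libraries. Atf3 and Zfp36 overlap Gm24748 and the antisense gene Gm44710, and the use of strand in counting is not given in the sources used here, so the levels of Jun, Atf3 and Zfp36 are uncertain to that extent.

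The sequences upstream of 4 members are shown because some carry TGACG, a DNA word that CREB and ATF proteins recognise, and another lacks that exact word. Each runs 5′ to 3′ over the 250 bases before the RefSeq start (GRCm38.p6), on the strand of the gene, with TGACG or its reverse complement in capitals. The Fos window is chr12:85473640-85473889 (plus strand), the Junb window chr8:84978749-84978998 (minus strand), the Nr4a1 window chr15:101266596-101266845 (plus strand) and the Jun window chr4:95052223-95052472 (minus strand).
Fos: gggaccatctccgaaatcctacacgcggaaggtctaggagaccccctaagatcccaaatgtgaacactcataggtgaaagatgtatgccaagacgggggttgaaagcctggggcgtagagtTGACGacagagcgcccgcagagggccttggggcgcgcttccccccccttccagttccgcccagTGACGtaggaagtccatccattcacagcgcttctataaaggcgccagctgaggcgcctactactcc
Junb: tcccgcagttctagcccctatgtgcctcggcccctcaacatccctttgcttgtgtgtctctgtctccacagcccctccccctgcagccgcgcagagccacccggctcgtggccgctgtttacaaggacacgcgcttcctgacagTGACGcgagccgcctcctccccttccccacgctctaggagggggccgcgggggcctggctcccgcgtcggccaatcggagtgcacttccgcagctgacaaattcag
Nr4a1: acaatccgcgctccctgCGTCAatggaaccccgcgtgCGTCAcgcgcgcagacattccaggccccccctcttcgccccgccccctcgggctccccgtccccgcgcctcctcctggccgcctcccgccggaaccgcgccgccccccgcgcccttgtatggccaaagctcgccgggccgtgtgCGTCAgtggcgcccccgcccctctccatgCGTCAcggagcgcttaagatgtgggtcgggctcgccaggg
Jun: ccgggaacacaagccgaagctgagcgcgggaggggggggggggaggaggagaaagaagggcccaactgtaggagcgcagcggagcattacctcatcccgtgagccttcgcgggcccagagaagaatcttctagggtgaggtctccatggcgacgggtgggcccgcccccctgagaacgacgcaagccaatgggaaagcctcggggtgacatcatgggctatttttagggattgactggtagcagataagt

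A RefSeq window was at hand for 8 of the 10 members. TGACG, the short form of the cyclic AMP response element, was present on either strand in 5 of the 8 (Fos, Fosb, Junb, Atf3 and Nr4a1), against 17.8% of 32851 promoters of the same length. Nr4a1 held it at 4 places, with first bases at -233, -213, -69 and -40 from the start, and Fos at 2, at -129 and -66. Fosb held it once, at -60, Junb once, at -106, and Atf3 once, at -7. The Atf3 window (chr1:191183334-191183583) and the Zfp36 window (chr7:28379229-28379478) lie inside the gene spans given below. The Fosb and Ier3 windows overlap theirs in part. A CArG box, the SRF word, was in 1 of 8 windows (Zfp36, at -58) and in 1.47% of all promoters. The EGR word GCGNGGGCG was in 3 of 8 (Fosb, Nr4a1 and Zfp36) and in 4.7% of all, and TATAAA in 1 of 8 (Fos, at -33) and in 12.4% of all. The full element TGACGTCA, which contains it, and the AP-1 word TGANTCA were in none of the 8 windows, against 1.55% and 6.75% of all promoters. The Jun and Ier3 windows held none of these words, which says nothing of sites outside them. Variants of the words, such as the tgacatca in the Jun window, were not searched for, so a site of that kind is not excluded. The reference sequence is that of B6, and the alleles of the other strains were not analysed here.

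Each of the 10 members showed a strain difference by edgeR's quasi-likelihood F test, adjusted over all genes tested. That share reads against a background of 89.4% of the 16425 genes tested, so a strain difference was the common case among all genes. Adjusted p-values ran from 1.14e-10 for Ier3 and 8.73e-08 for Nr4a1 to 0.00466 for Zfp36 and 0.00898 for Fosb. Of the 280 comparisons of a member between 2 strains, 103 (36.8%) passed the threshold of 0.05, close to the 40.5% over all genes and the same 28 pairs. The counts of pairs ran from 5 of 28 for Zfp36, 6 for Fos and 6 for Fosb to 15 for Nr4a1 and 17 for Ier3. Ranked by strain mean, neighbouring strains did not pass in 69 of 70 comparisons: the single one that did was NZO over AJ for Ier3, at 12.6 against 9.30 CPM (log2 fold change 0.44 ± 0.16 SE, adjusted p = 0.0282).

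The values of the 10 members had the same sign in 5 strains, split 9 to 1 in PWK and 5 to 5 in AJ and in B6. Most members moved together between libraries of a strain, as given below, so counts of members by strain are not counts of independent results. Each strain was set against the mean of the other 7 on the log2 scale, and 34 of the 80 comparisons of a member with a strain passed, 18 of them higher and 16 lower. In NOD hearts 8 of 10 members were higher (19% of all tested genes were) and none was lower (13.5%), with a median log2 fold change over the members of 0.65. Without NOD_7 the NOD calls of Egr1, Ier2 and Zfp36 ended (adjusted p = 0.105, 0.0513 and 0.0902, edgeR). A second method, limma on the deposited log2 values, called 6 members higher in NOD. In 129 hearts 6 of 10 were higher (16.8%) and none lower (14.4%), with a median of 0.56. Without library 129_7 the higher members of 129 numbered 2, Jun and Atf3, and the value of Fosb, which was not called, turned negative. In NZO hearts Atf3 and Nr4a1 were higher, 2 of 10 (22.1%), and none was lower (18.5%), with a median of 0.30. These 3 strains had positive values for all 10 members, whether or not a member passed.

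In Cast hearts 6 of 10 were lower (29.3%) and none higher (30.6%), with a median log2 fold change of -0.72. Without Cast libraries 1, 5 and 6 the lower members numbered 3 (Atf3, Nr4a1 and Ier3). In WSB hearts 5 of 10 were lower (19.9%) and none higher (25.1%), with a median of -0.61. Without WSB_8 the WSB calls of Fosb, Atf3 and Zfp36 ended (adjusted p = 0.0654, 0.0553 and 0.0568, edgeR). With limma on the deposited log2 values 3 members were lower in WSB. Cast and WSB had negative values for all 10 members. In PWK hearts 4 of 10 were lower (26.7%) and none higher (27%), with a median of -0.38, and Jun alone had a positive value. AJ hearts split, with Nr4a1 higher (1 of 10, 20.6%) and Ier3 lower (1 of 10, 17.9%), and B6 hearts had Ier3 higher (1 of 10, 17.5%) and none lower (14.7%). The medians over all genes lay between -0.0051 and 0.0157 in the 8 strains. Where edgeR called none, its unadjusted p was under 0.05 for 0 members as well, except for 2 lower in B6, and DESeq2 called those 2 (Jun and Atf3) and otherwise 0, while limma on the deposited log2 values called 0 throughout. The 8 contrasts share libraries, so they are given side by side.

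**Figure D1:**
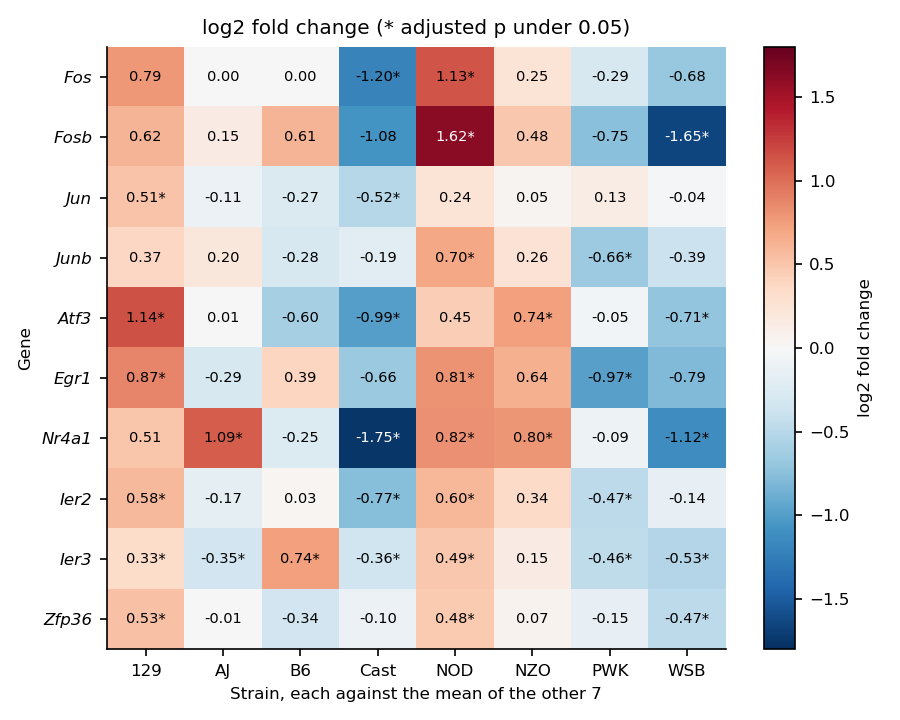
Log2 fold change of each of the 10 immediate early genes (rows) in each strain against the mean of the other 7 strains (columns), from the edgeR fit over 63 libraries, with red for higher, blue for lower and an asterisk for an adjusted p under 0.05. The Cast and WSB columns are blue and the 129, NOD and NZO columns red for all 10 genes, and the values run from -1.75 for Nr4a1 in Cast to 1.62 for Fosb in NOD.

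Fos (chr12:85473890-85477273, plus strand, GRCm38), which joins a Jun protein to form the AP-1 transcription factor, was 4.11-fold higher by strain means in NOD than in Cast. Fos spanned 17.2 to 106 CPM in NOD (median 61.4), 8.54 to 144 CPM in 129 (median 35.9), 23.5 to 61.97 CPM in NZO (median 30.7) and 11.4 to 60.8 CPM in AJ (median 25.1). It covered 14.4 to 75.5 CPM in B6 (median 21.7), 8.06 to 74.3 CPM in PWK (median 18.7), 11.1 to 25.8 CPM in WSB (median 22.6) and 3.72 to 33.9 CPM in Cast (median 11.8). NOD and 129 reached the highest levels and Cast the lowest, yet every pair of strains overlapped. Fos averaged 61.2 ± 34.97 CPM in NOD (SD, n = 8) against 29.8 CPM elsewhere, for a log2 difference of 1.13 ± 0.31 (SE, adjusted p = 0.00312, edgeR), with 6 of 8 NOD libraries above the median of the others. It averaged 14.9 ± 11.7 CPM in Cast (SD, n = 7) against 36.4 CPM elsewhere, for a log2 difference of -1.20 ± 0.41 (adjusted p = 0.00972). The Cast libraries 1, 2, 3, 5, 6, 7 and 8 held 3.72, 8.19, 15.3, 3.91, 11.8, 27.6 and 33.9 CPM. Libraries 1, 5 and 6 carried 363, 235 and 256 CPM of Fkbp5, a glucocorticoid-induced gene named here after its values were seen, against 53.9 to 107 CPM in the other 4. Without these 3 the value was -0.68 (adjusted p = 0.258), and what set these libraries apart was not tested. The value in 129 was 0.79 with an adjusted p of 0.0546, and it passed in 12 of the 63 fits that left out a library, among them those without 129_1, 129_4 or 129_6. Without 129_7 it fell to 0.33 (adjusted p = 0.507).

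Fosb (chr7:19302696-19310051, minus strand, GRCm38), a second Fos-family partner of the Jun proteins, had the widest range of the members, 124-fold over the 63 libraries. Fosb ran over 1.85 to 56.4 CPM in NOD (median 31.9), 1.17 to 63.9 CPM in 129 (median 12.7), 1.64 to 47.1 CPM in B6 (median 5.02) and 3.73 to 25.6 CPM in NZO (median 16.2). It ran over 2.20 to 25.1 CPM in AJ (median 11.8), 1.13 to 30.5 CPM in PWK (median 3.90), 0.515 to 20.8 CPM in Cast (median 1.60) and 1.03 to 7.34 CPM in WSB (median 4.68). All strains overlapped, and WSB alone had no library above 7.34 CPM. In NOD it averaged 30.4 ± 22 CPM against 11.1 CPM in the other strains (log2 fold change 1.62 ± 0.47, adjusted p = 0.00543). In WSB it averaged 4.18 ± 2.58 CPM against 14.9 CPM (-1.65 ± 0.64, adjusted p = 0.0318), and all 8 WSB libraries lay below the median of the others. The WSB call ended when WSB_5, WSB_8 or WSB_9 was left out (adjusted p 0.0612 to 0.066) and with limma on the deposited values (-0.80, adjusted p = 0.0667).

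Jun (chr4:95049034-95052222, minus strand, GRCm38), the founding Jun subunit of AP-1, moved over a much narrower range than the Fos genes, 4.60-fold over all libraries. Jun spanned 70.7 to 179.8 CPM in 129 (median 111), 71.6 to 119 CPM in NOD (median 92.7), 60.4 to 128 CPM in PWK (median 85.6) and 64.4 to 99.02 CPM in NZO (median 85.8). It covered 66.7 to 91.3 CPM in WSB (median 79.99), 51.5 to 107 CPM in AJ (median 76.2), 54.9 to 91.1 CPM in B6 (median 67.6) and 39.1 to 80.1 CPM in Cast (median 63.8). The lower end was held by Cast and the upper by 129, which overlapped between 70.7 and 80.1 CPM. Jun averaged 112 ± 32.5 CPM in 129 against 79.4 CPM in the other strains (log2 fold change 0.51 ± 0.11, adjusted p = 1e-04). In Cast it averaged 60.04 ± 15.4 CPM against 86.8 CPM (-0.52 ± 0.12, adjusted p = 0.000262), and 7 of 7 Cast libraries lay below the median of the others. The libraries Cast_5 and Cast_6, at 39.8 and 39.1 CPM, were the lowest of all 63, and without Cast 1, 5 and 6 the value was -0.34 (adjusted p = 0.0544).

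Junb (chr8:84976909-84978748, minus strand, GRCm38), a Jun-family subunit that often restrains Jun activity, was highest in NOD and lowest in PWK. Junb extended over 12.4 to 50.8 CPM in NOD (median 32.04), 9.999 to 41.5 CPM in 129 (median 26.2), 17.7 to 32.1 CPM in NZO (median 25.97) and 15.4 to 37.2 CPM in AJ (median 22.6). It extended over 13.2 to 28.4 CPM in Cast (median 20.4), 12.2 to 29.6 CPM in B6 (median 17.6), 11.7 to 23.8 CPM in WSB (median 16.3) and 8.34 to 26.4 CPM in PWK (median 11.99). NOD held the 3 highest libraries, but its lowest, at 12.4 CPM, fell within the PWK range. It averaged 33.1 ± 13.98 CPM in NOD against 20.9 CPM in the other strains (log2 fold change 0.70 ± 0.17, adjusted p = 0.000989) and 14.5 ± 6.05 CPM in PWK against 23.5 CPM (-0.66 ± 0.20, adjusted p = 0.00342). Both calls held in each of the 63 fits that left out a library.

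Atf3 (chr1:191170296-191218039, minus strand, GRCm38), a stress-induced member of the ATF/CREB family that can repress transcription, was 3.61-fold higher by strain means in 129 than in Cast. Atf3 was at 10.9 to 76.8 CPM in 129 (median 25.01), 8.54 to 52.3 CPM in NZO (median 23.4), 8.93 to 26.01 CPM in NOD (median 21.7) and 10.9 to 23.3 CPM in AJ (median 15.4). It was at 6.16 to 34.1 CPM in PWK (median 11.4), 4.81 to 24.4 CPM in B6 (median 9.25), 7.10 to 14.2 CPM in WSB (median 9.80) and 3.66 to 14.9 CPM in Cast (median 7.76). The top library, 129_7 at 76.8 CPM, lay far above the next in its strain, at 44.4 CPM. Atf3 averaged 31.4 ± 22.01 CPM in 129 against 15.2 CPM in the other strains (log2 fold change 1.14 ± 0.23, adjusted p = 7.39e-05), and 0.81 (adjusted p = 0.00647) was the lowest value with a library left out. NZO averaged 24.8 ± 12.97 CPM against 16.1 CPM (0.74 ± 0.24, adjusted p = 0.00969), which ended without NZO_8 (0.50, adjusted p = 0.112). In Cast it averaged 8.70 ± 3.65 CPM against 18.4 CPM (-0.99 ± 0.30, adjusted p = 0.00383). In WSB it averaged 10.2 ± 2.55 CPM against 18.2 CPM (-0.71 ± 0.27, adjusted p = 0.0305), which ended without WSB_1, WSB_3, WSB_6 or WSB_8 (adjusted p 0.0553 to 0.0651).

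**Figure D2:**
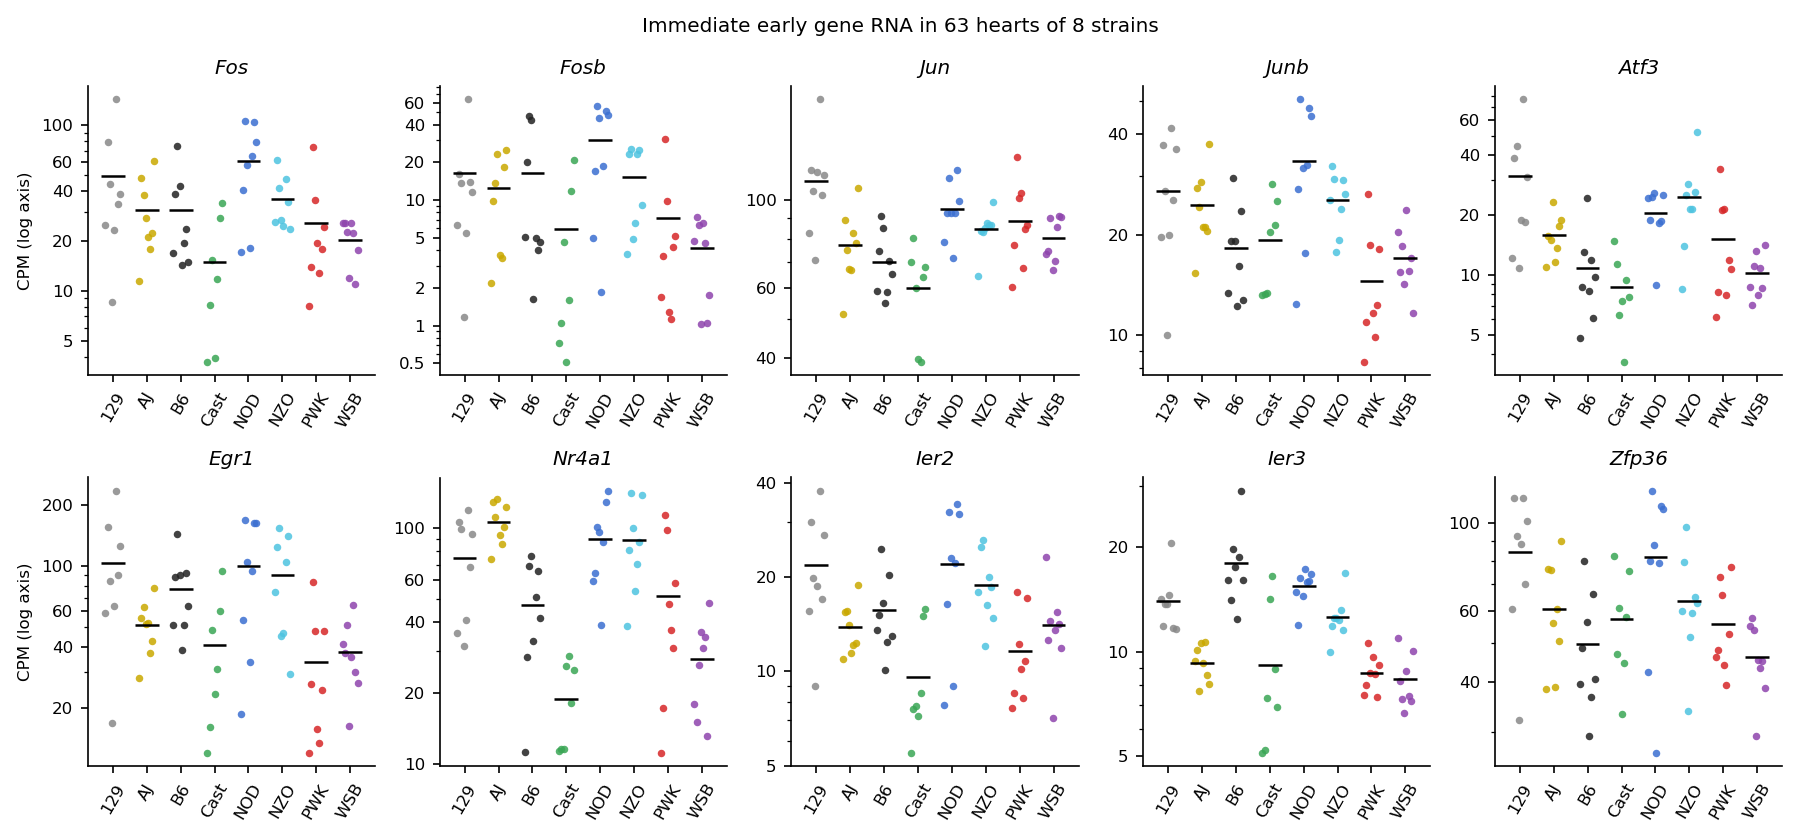
CPM of the 10 immediate early genes in each of the 63 libraries (points, log axis, a separate scale per gene) by strain, with the strain mean as a horizontal line. Points scatter most within strains for Fosb, Fos and Egr1 and least for Jun and Ier3. Among the 10 genes only Nr4a1 and Ier3 have pairs of strains with no overlap, and the share over all tested genes was not computed.

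Egr1, a zinc finger transcription factor induced through the MAP kinase and SRF route, was highest in 129, NOD and NZO and lowest in PWK and WSB. Egr1 spanned 16.9 to 235 CPM in 129 (median 87.5), 18.7 to 168 CPM in NOD (median 100.1), 29.5 to 154 CPM in NZO (median 89.9) and 38.8 to 144 CPM in B6 (median 76.1). It covered 28.2 to 78.2 CPM in AJ (median 52.2), 12.1 to 94.8 CPM in Cast (median 31.2), 16.3 to 64.4 CPM in WSB (median 36.5) and 12.01 to 83.2 CPM in PWK (median 25.5). Each of the 3 high strains also held libraries at 29.5 CPM or less, inside the ranges of PWK and WSB. It averaged 104 ± 67.8 CPM in 129 against 61.7 CPM in the other strains (log2 fold change 0.87 ± 0.30, adjusted p = 0.0201) and 100.3 ± 60.7 CPM in NOD against 62.2 CPM (0.81 ± 0.30, adjusted p = 0.0304). The 129 call ended without 129_2 (0.76, adjusted p = 0.0667) or 129_7 (0.58, adjusted p = 0.167), and the NOD call without NOD_3, NOD_7 or NOD_8 (0.67 to 0.68, adjusted p 0.105 to 0.112). With limma on the deposited values both missed the threshold (adjusted p = 0.0726 in 129 and 0.11 in NOD). In PWK it averaged 33.9 ± 24.5 CPM against 71.7 CPM (-0.97 ± 0.35, adjusted p = 0.0163), and this held under each alternative.

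Nr4a1 (chr15:101266846-101274792, plus strand, GRCm38), an orphan nuclear receptor induced by calcium and cyclic AMP signals, had the smallest adjusted p for a strain difference among the transcription factors of the group. Nr4a1 spanned 73.95 to 132 CPM in AJ (median 106), 38.8 to 144 CPM in NOD (median 91.8), 38.3 to 140.4 CPM in NZO (median 84.2) and 31.8 to 119.8 CPM in 129 (median 81.2). It covered 11.1 to 114 CPM in PWK (median 42.4), 11.2 to 75.9 CPM in B6 (median 46.4), 13.2 to 48.2 CPM in WSB (median 28.6) and 11.3 to 28.8 CPM in Cast (median 18.2). Cast lay wholly below 129, AJ, NOD and NZO, and WSB wholly below AJ, the 5 pairs of strains with no overlap for this gene. The share of such pairs over all tested genes was not computed, so this count is a description only. The 7 Cast libraries held 11.3 to 28.8 CPM, whereas no AJ library was under 73.9 CPM. Nr4a1 averaged 18.9 ± 7.63 CPM in Cast against 69.4 CPM elsewhere, for a log2 difference of -1.75 ± 0.33 (adjusted p = 8.7e-06, edgeR). In WSB it averaged 27.8 ± 12.1 CPM against 68.2 CPM (-1.12 ± 0.30, adjusted p = 0.00148). It was higher in AJ at 106 ± 21.2 CPM against 57.0 CPM (1.09 ± 0.24, adjusted p = 0.000227), in NOD at 90.05 ± 35.5 CPM against 59.3 CPM (0.82 ± 0.25, adjusted p = 0.00767) and in NZO at 88.8 ± 36.8 CPM against 59.4 CPM (0.80 ± 0.25, adjusted p = 0.00802). All 5 calls held in every fit with a library left out and under every other alternative, and without Cast 1, 5 and 6 the Cast value was -1.94 (adjusted p = 0.000276). In AJ it was the single member called higher, beside 9 whose values lay between -0.35 and 0.20.

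Ier2 (chr8:84661331-84662852, minus strand, GRCm38), a small nuclear protein of the early response, followed the order of Fos at the extremes. Ier2 measured 7.83 to 34.3 CPM in NOD (median 22.7), 8.98 to 37.9 CPM in 129 (median 19.4), 12.1 to 26.3 CPM in NZO (median 18.3) and 10.1 to 24.6 CPM in B6 (median 14.4). It measured 7.09 to 23.2 CPM in WSB (median 13.9), 10.96 to 18.9 CPM in AJ (median 13.2), 7.65 to 17.97 CPM in PWK (median 10.5) and 5.47 to 15.9 CPM in Cast (median 7.74). NOD and 129 were high and Cast low, with overlap in every pair of strains. It averaged 22.2 ± 10.4 CPM in NOD against 15.1 CPM in the other strains (log2 fold change 0.60 ± 0.18, adjusted p = 0.00805), 21.96 ± 9.23 CPM in 129 against 15.1 CPM (0.58 ± 0.19, adjusted p = 0.0112) and 9.64 ± 4.10 CPM in Cast against 16.9 CPM (-0.77 ± 0.22, adjusted p = 0.00229). The NOD call ended without NOD_7 (0.48, adjusted p = 0.0513), the 129 call without 129_7 (0.43, adjusted p = 0.0929) and the Cast call without Cast 1, 5 and 6 together (-0.51, adjusted p = 0.134). PWK averaged 11.6 ± 3.998 CPM against 16.6 CPM (-0.47 ± 0.20, adjusted p = 0.0453), a call that ended in 18 of the 63 fits with a library left out, with adjusted p-values up to 0.112.

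Ier3 (chr17:35821684-35822923, plus strand, GRCm38), an early response gene also known as a regulator of cell survival and a target of NF-kB, was highest in B6, a strain in which no other member was called. Ier3 spanned 12.4 to 29.2 CPM in B6 (median 16.9), 11.9 to 17.3 CPM in NOD (median 15.9), 11.6 to 20.6 CPM in 129 (median 13.7) and 9.99 to 16.9 CPM in NZO (median 12.4). It covered 7.72 to 10.6 CPM in AJ (median 9.34), 5.09 to 16.6 CPM in Cast (median 7.36), 7.41 to 10.6 CPM in PWK (median 8.63) and 6.64 to 10.9 CPM in WSB (median 7.83). B6, NOD and 129 each lay wholly above AJ, PWK and WSB, 9 pairs of strains with no overlap, again without a share over all tested genes beside them. It averaged 18.01 ± 5.11 CPM in B6 against 11.1 CPM elsewhere, for a log2 difference of 0.74 ± 0.11 (adjusted p = 1.44e-07, edgeR), and all 8 B6 libraries lay above the median of the others. GRCm38, the assembly named in the submitters' processing notes, is a B6 sequence. How counting treated variants of the other strains is not given, and whether they cost reads was not tested. In NOD it averaged 15.4 ± 1.69 CPM against 11.4 CPM (0.49 ± 0.11, adjusted p = 0.000387) and in 129 14.01 ± 2.92 CPM against 11.6 CPM (0.33 ± 0.12, adjusted p = 0.0237). The 129 call ended without 129_7 (0.23, adjusted p = 0.154).

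Ier3 was lower in WSB at 8.32 ± 1.51 CPM against 12.5 CPM in the other strains (log2 fold change -0.53 ± 0.12, adjusted p = 0.000351) and in PWK at 8.69 ± 1.09 CPM against 12.4 CPM (-0.46 ± 0.12, adjusted p = 0.00111). AJ averaged 9.30 ± 1.11 CPM against 12.3 CPM (-0.35 ± 0.12, adjusted p = 0.0177). None of the 8 libraries of AJ, PWK or WSB lay above the median of the others. Cast was split, with libraries 1, 2, 3, 5, 6, 7 and 8 at 5.09, 5.21, 7.36, 14.2, 16.6, 8.90 and 6.93 CPM. Its value was -0.36 ± 0.13 (adjusted p = 0.0128), which became -0.26 (adjusted p = 0.0799) without Cast_1, -0.27 (adjusted p = 0.0735) without Cast_2 and -0.57 (adjusted p = 0.000128) without Cast_6. Without Cast 1, 5 and 6 it was -0.74 (adjusted p = 8.6e-06). Cast_5 and Cast_6, the highest for Ier3, were the lowest for Jun, and Pearson's r between these genes over the 7 Cast libraries was -0.957. This coefficient was named after its value was seen. Over all 63 libraries, with the strain mean subtracted, r was -0.0851 (adjusted permutation p = 0.646), and it was positive in 5 of 8 strains.

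Zfp36 (chr7:28376784-28380253, minus strand, GRCm38), which encodes tristetraprolin, a protein that binds AU-rich elements and speeds the decay of cytokine and early response transcripts, ranged 4.54-fold over the libraries. Zfp36 spanned 32.1 to 115 CPM in 129 (median 90.5), 26.5 to 120.1 CPM in NOD (median 84.02), 33.8 to 97.3 CPM in NZO (median 61.6) and 38.4 to 89.9 CPM in AJ (median 58.4). It covered 33.2 to 82.2 CPM in Cast (median 58.1), 39.3 to 77.6 CPM in PWK (median 50.4), 29.2 to 80.05 CPM in B6 (median 44.6) and 29.3 to 57.6 CPM in WSB (median 45.2). All strains overlapped, and NOD held both the lowest library (26.5 CPM, NOD_5) and the highest (120.1 CPM, NOD_3). It averaged 84.4 ± 28.6 CPM in 129 against 59.4 CPM in the other strains (log2 fold change 0.53 ± 0.17, adjusted p = 0.0139), 81.8 ± 33.1 CPM in NOD against 59.7 CPM (0.48 ± 0.17, adjusted p = 0.0272) and 46.05 ± 9.41 CPM in WSB against 64.8 CPM (-0.47 ± 0.19, adjusted p = 0.0373). Each of these 3 calls ended when certain single libraries were left out: the 129 call ended without 129_2 or 129_7 (adjusted p 0.0562 to 0.057), the NOD call without NOD_3, NOD_4, NOD_7 or NOD_8 (adjusted p up to 0.116) and the WSB call without WSB_5, WSB_6, WSB_7, WSB_8 or WSB_9 (adjusted p up to 0.1).

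The members varied widely between hearts of the same strain. The SD of log2 CPM within strains was 1.57 for Fosb, 0.93 for Fos, 0.90 for Egr1, 0.75 for Nr4a1 and 0.68 for Atf3, above 99.8%, 98.2%, 98%, 95.2% and 91.7% of all tested genes. It was 0.53 for Ier2, 0.505 for Zfp36, 0.503 for Junb, 0.32 for Ier3 and 0.30 for Jun. These lay above 80.8%, 79.1%, 79%, 62.8% and 61.2% of all tested genes, whose median was 0.24. Among the 8898 genes at least as abundant as the lowest member the median SD was 0.16, and each of the 10 members exceeded at least 91.8% of them. The share of variance between strains (adjusted R squared) was 0.61 for Ier3 and 0.53 for Nr4a1, above the median of 0.44 over all tested genes. For the other 8 members it was below that median, from 0.14 for Zfp36 to 0.37 for Atf3.

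**Figure D3:**
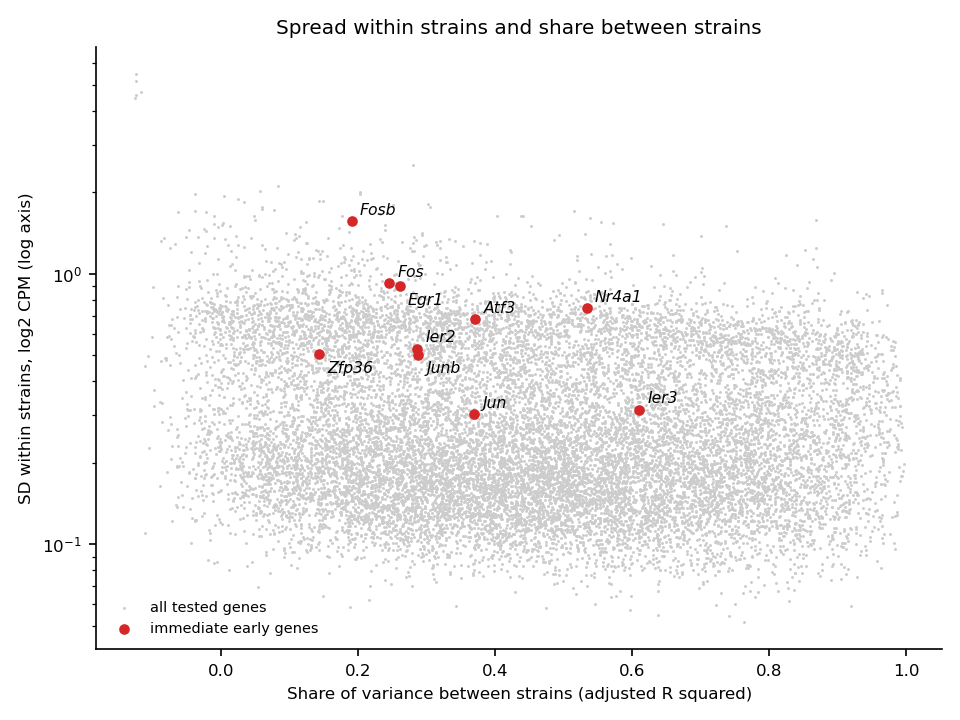
SD of log2 CPM within strains (vertical, log axis) against the share of variance between strains (horizontal, adjusted R squared) for all 16425 tested genes (grey points) and the 10 immediate early genes (red, named). Fosb, Fos and Egr1 sit near the top of the cloud at shares of 0.19 to 0.26, and Ier3 and Nr4a1 lie to the right at 0.61 and 0.53.

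Most members moved together from heart to heart within a strain. After the strain mean was subtracted, 37 of the 45 pairs of members were related in a two-sided permutation test within strains (100000 resamples, adjusted over the 45 pairs), all 37 positively. These p-values assume that libraries of a strain can be exchanged, whatever their replicate number. With that number as a block, Atf3 with Junb and Atf3 with Ier2 did not pass. No share over pairs of other genes was computed. Fos, Fosb, Egr1, Ier2, Junb and Zfp36 formed the tightest block, with Pearson's r between 0.743 and 0.904 in all 15 of their pairs. For Fos with Fosb r was 0.902 and Spearman's rho 0.892 (adjusted permutation p = 1.96e-05 and 2.37e-05, n = 63), and r was 0.889 without the 2 libraries farthest from the median of Fos. For Egr1 with Ier2 r was 0.904 and rho 0.908 (adjusted permutation p = 1.96e-05 and 2.37e-05), and 0.88 without the farthest 2. The unadjusted p of 1e-05 behind these values is the smallest that this number of resamples can give. Within single strains r ran from 0.749 in AJ to 0.969 in 129 for Fos with Fosb, and from 0.744 in WSB to 0.988 in NOD for Egr1 with Ier2.

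Atf3 had its highest coefficients with Jun and Nr4a1, outside that block. For Jun with Atf3 r was 0.723 and rho 0.65 (adjusted permutation p = 1.96e-05 and 2.37e-05), and for Atf3 with Nr4a1 r was 0.666 and rho 0.626 (adjusted permutation p = 1.96e-05 and 2.37e-05). Without the 2 libraries farthest in the first gene these were 0.668 and 0.628. With Fos the coefficient of Atf3 was lower (r = 0.442, rho = 0.363, adjusted permutation p = 0.00177 and 0.0102), and its r with Fos was 0.333 without the farthest 2 and ran from -0.429 in WSB to 0.908 in 129. The relation of Atf3 with Egr1 did not pass (r = 0.288, rho = 0.246, adjusted permutation p = 0.0545 and 0.0902). The difference between such coefficients was not tested.

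Ier3 was related to few of the other members. Its r with the other 9 members ran from -0.0851 with Jun to 0.402 with Nr4a1, and 2 of 9 relations passed. With Nr4a1 r was 0.402 and rho 0.439 (adjusted permutation p = 0.00129 and 0.00112), 0.406 without the farthest 2, and positive in 7 of 8 strains. With Junb r was 0.328 and rho 0.315 (adjusted permutation p = 0.0108 and 0.0242), 0.37 without the farthest 2, and 0.268 (adjusted permutation p = 0.0522) without Cast 1, 5 and 6. Within strains the r of Ier3 with Fos ran from -0.382 in AJ to 0.773 in PWK.

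**Figure D4:**
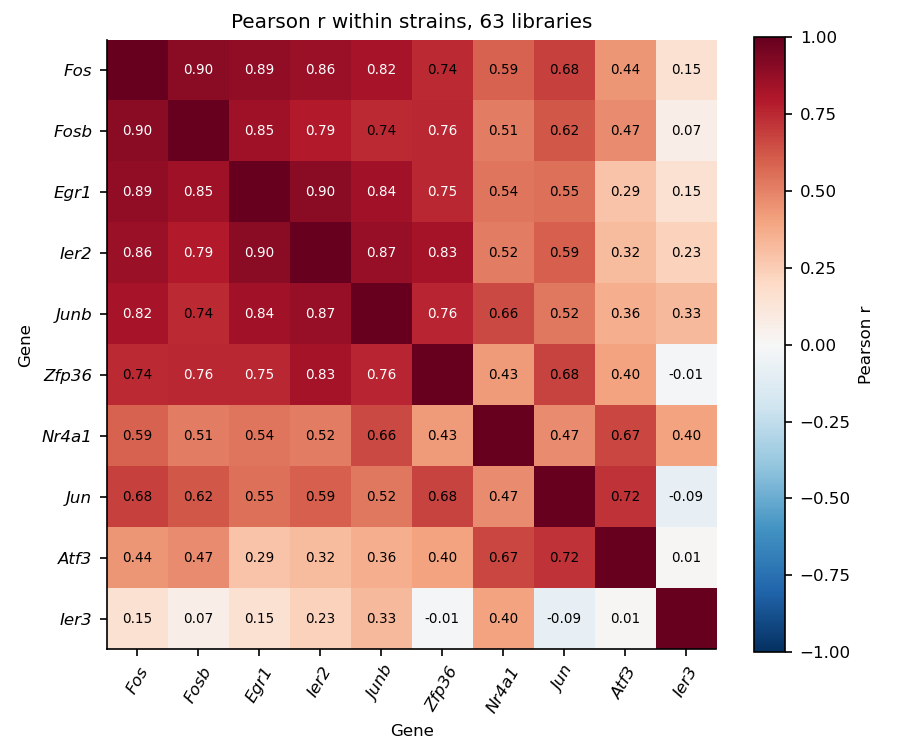
Pearson's r of log2 CPM after subtracting the strain mean, over 63 libraries, for each of the 45 pairs of immediate early genes (color from blue at -1 to red at 1). The 6 genes at the upper left have r of 0.743 or more with each other, and the highest values in the Ier3 row are 0.402 with Nr4a1 and 0.328 with Junb.

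The joint movement was carried by the same libraries for most genes. All 9 members other than Ier3 lay above their strain means in 14 of 63 libraries and below them in 9. PWK_3 was the highest PWK library for 9 members, and B6_3 and AJ_7 the highest of their strains for 7 each. At the low end, 129_4 and AJ_1 were each the lowest of their strain for 9 members, B6_5 for 8 and PWK_1 for 7. In PWK, for example, Fos was at 74.3 CPM in PWK_3 and 8.06 CPM in PWK_1, Egr1 at 83.2 and 12.01 CPM and Nr4a1 at 113.7 and 11.1 CPM. In 129, the same genes were at 144, 235 and 119.8 CPM in 129_7, and at 8.54, 16.9 and 31.7 CPM in 129_4. WSB had the lowest of the 8 within-strain coefficients in 20 of 45 pairs, Cast in 13 and NZO in 5. For Fos, the SD of log2 CPM was 0.499 in WSB and 0.51 in NZO, against 1.25 in Cast and 1.22 in 129. The part of a small spread in these coefficients was not tested.

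**Figure D5:**
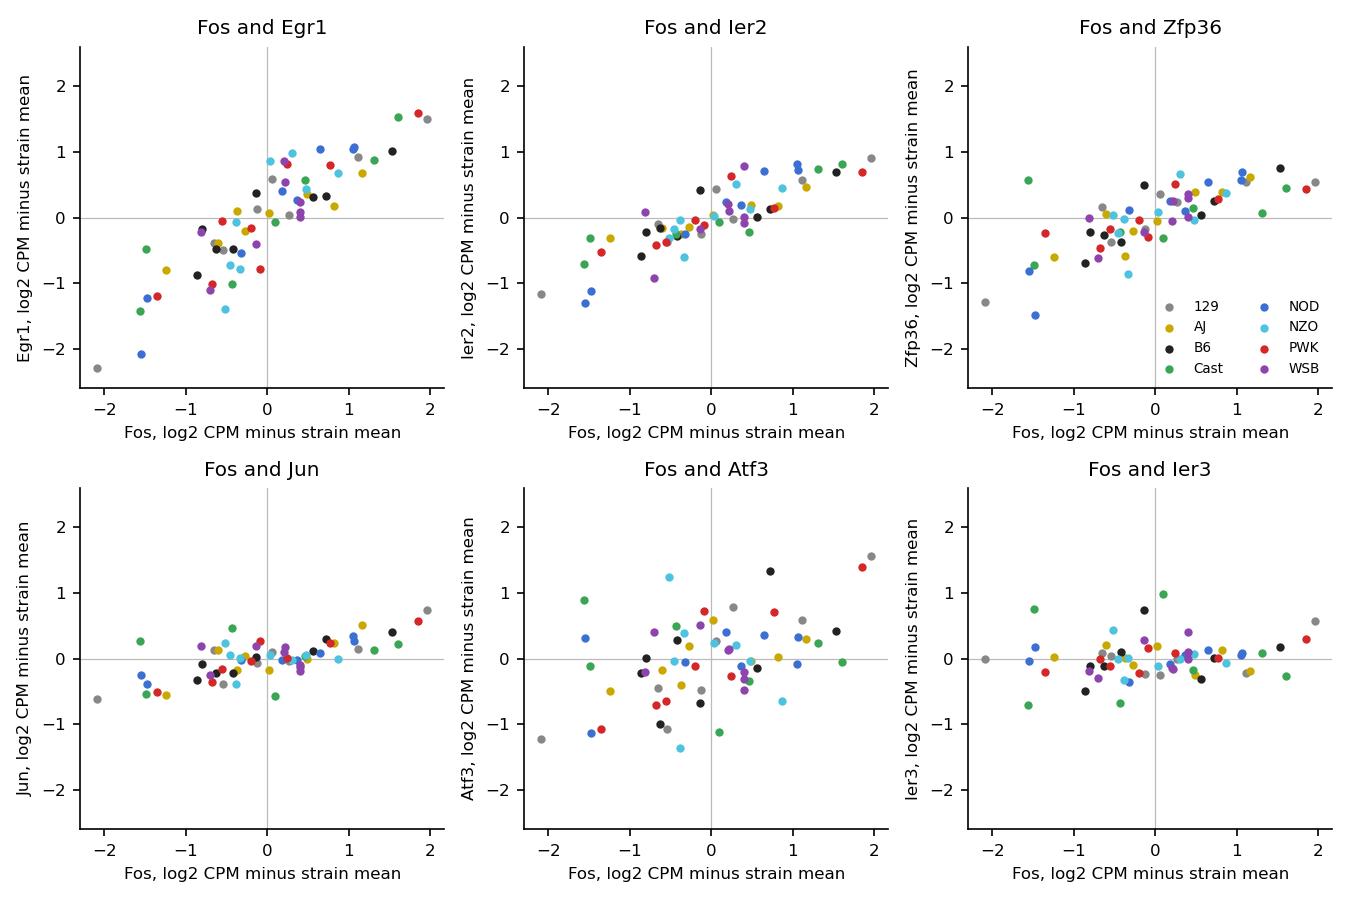
Log2 CPM minus the strain mean for Fos (horizontal) against Egr1, Ier2, Zfp36, Jun, Atf3 and Ier3 (vertical) in 63 libraries, colored by strain, on a common vertical scale. Points follow a rising line for Egr1 (r = 0.888) and Ier2 (r = 0.864), a shallow one for Jun (r = 0.681), and no line for Ier3 (r = 0.153).

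The members were also set against 21 other measures within strains, 210 relations in all, with p-values adjusted over them. As for the pairs of members, the permutation p-values assume that libraries of a strain can be exchanged, whatever their replicate number. None of the 10 members was related past the threshold to total count, TMM factor, mitochondrial share or library number, and none to the marker lists of cardiomyocytes, endothelium, fibroblasts, mural cells, macrophages, B cells, T cells, adipocytes, red cells, atrial muscle or Schwann cells, nor to the glucocorticoid-induced or hypoxia lists. Of these 170 relations 7 had an unadjusted permutation p under 0.05, and the smallest adjusted p among them was 0.0571. The 8 heat shock genes (Hspa1a, Hspa1b, Dnajb1, Hsph1, Hspb1, Hsp90aa1, Hspa8 and Hspe1, chaperones and co-chaperones) were the list related to most members, 4 of 10. The share of all tested genes related to this or any other list was not computed, so such counts are descriptions only. For Jun r was 0.722 and rho 0.676 (adjusted permutation p of r = 0.00105), 0.664 without the farthest 2, and positive in 8 of 8 strains. For Atf3 r was 0.648 and rho 0.559 (adjusted permutation p = 0.00105), 0.563 without the farthest 2, and positive in 8 of 8 strains.

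Fos (r = 0.495, rho = 0.38, adjusted permutation p = 0.0098) and Fosb (r = 0.473, rho = 0.418, adjusted permutation p = 0.00924) were related to the heat shock list as well, with r of 0.374 and 0.454 without the farthest 2. In WSB, r for these genes was -0.808 and -0.771, against 0.893 in PWK for Fos and 0.762 in 129 for Fosb. Library 129_7 moved the Jun and Atf3 coefficients most, to 0.681 and 0.593 when it was left out, and that of Fos to 0.408. Between strains, all 8 heat shock genes were higher in WSB (25.1% of all tested genes were) and 5 in PWK (27%), and 8 were lower in B6 (14.7%) and 5 in Cast (29.3%). In 129 hearts 4 were higher (16.8%), which rested on 129_7: without that library 1 was higher (Hspa8) and 1 lower (Hspe1), and Hspa1b was at 22.9 CPM in the other 7 libraries of 129, against 65.2 CPM in the other strains (log2 fold change -0.58 ± 0.44, adjusted p = 0.346). Their summed level ran from 3091 to 4163 CPM in WSB, the strain lowest for Fosb, Ier3 and Zfp36, and from 2062 to 2547 CPM in NOD, where 8 members were higher. The part of heat shock in the members' levels was not tested.

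Ier3 was related to 3 other lists, and Junb and Nr4a1 to 1 of them each. With the cytokine and adhesion list (Il6, Cxcl1, Ccl2, Ccl7, Cxcl2, Sele, Icam1, Vcam1 and Selp, of which 8 of 9 were tested) its r was 0.605 and rho 0.437 (adjusted permutation p = 0.0084), 0.5 without the farthest 2, and positive in 7 of 8 strains. Junb was related to the same list (r = 0.496, rho = 0.557, adjusted permutation p = 0.0028), 0.528 without the farthest 2. With 9 clock genes Ier3 had r of 0.551 and rho of 0.596 (adjusted permutation p = 0.0141), 0.541 without the farthest 2, and Nr4a1 had r of 0.483 and rho of 0.482 (adjusted permutation p = 0.0234), 0.436 without the farthest 2. With the neutrophil markers, of which 4 of 6 were tested, Ier3 had r of 0.482 and rho of 0.381 (adjusted permutation p = 0.0322), 0.349 without the farthest 2 and 0.402 without Cast_6. The summed neutrophil level was 0.956 to 7.58 CPM in 6 strains, up to 30.6 CPM in Cast and up to 173 CPM in NZO, and none of the 5 listed markers in the table was at 0 in all libraries of a strain. Its part in the Ier3 values was not tested.

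A wider list of 48 other immediate early genes, of which 47 were tested, was set against Fos and Atf3 within strains. Within strains, 21 of the 47 were related positively to Fos in the permutation test and 1 (Btg1) negatively (r = -0.306, adjusted permutation p = 0.0407). The share of all tested genes related to Fos was not computed, so these counts are not read as particular to early genes. The permutation p-values here also assume that libraries of a strain can be exchanged. The closest were Dusp1, a MAP kinase phosphatase (r = 0.883, rho = 0.887), Btg2, an antiproliferative factor (r = 0.803, rho = 0.762), Cyr61, a secreted matrix protein (r = 0.758, rho = 0.761), and Egr2 (r = 0.743, rho = 0.735), each with an adjusted permutation p of 5.87e-05 for r. Without the 2 libraries farthest in Fos these were 0.872, 0.764, 0.706 and 0.698. Others, named after their values were seen, had higher coefficients with Atf3 than with Fos, a difference that was not tested: Sik1 (r = 0.726 with Atf3 and 0.25 with Fos), Ier5 (0.706 and 0.426), Fosl2 (0.655 and 0.104) and Nr4a3, the sister receptor of Nr4a1 (0.609 and 0.246).

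By strain, 15 of the 47 were higher and 1 lower in NOD, where 19% of all tested genes were higher and 13.5% lower. The counts were 11 and 1 in 129 (16.8% and 14.4% of all genes), and 9 and 1 without 129_7. They were 17 and 3 in NZO (22.1% and 18.5%), 2 and 9 in B6 (17.5% and 14.7%), 5 and 11 in PWK (27% and 26.7%) and 2 and 13 in WSB (25.1% and 19.9%). In AJ, with 9 and 6 (20.6% and 17.9%), and Cast, with 11 and 16 (30.6% and 29.3%), the counts lay closer to the shares of all genes. The median log2 fold change of the list was 0.18 in NOD, 0.23 in NZO, 0.10 in 129, -0.02 in AJ, -0.12 in B6, -0.12 in Cast, -0.09 in PWK and -0.23 in WSB. Btg2 was lower in WSB at 38.0 CPM against 82.5 CPM in the other strains (log2 fold change -1.04 ± 0.20, adjusted p = 1.25e-05) and higher in NOD at 117 CPM against 71.3 CPM (0.80 ± 0.17, adjusted p = 9.37e-05). In AJ, where Nr4a1 was the member called higher, Nr4a3 was higher too, at 43.0 CPM against 20.7 CPM (1.15 ± 0.26, adjusted p = 0.000214), and in B6 it was lower, at 7.29 CPM against 25.8 CPM (-1.76 ± 0.34, adjusted p = 2.75e-05). Gadd45b and Maff were higher in Cast, at 9.30 CPM against 3.68 CPM (1.37 ± 0.19, adjusted p = 9.89e-09) and 15.2 CPM against 8.33 CPM (0.89 ± 0.16, adjusted p = 3.32e-06).

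The upstream kinases and transcription factors, all 26 of them tested, had 1 higher and 4 lower in NOD, 2 and 3 in 129, 8 and 6 in Cast and 5 and 5 in WSB. The shares of all tested genes that were higher and lower were 19% and 13.5% in NOD, 16.8% and 14.4% in 129, 30.6% and 29.3% in Cast and 25.1% and 19.9% in WSB, so no direction of the list is read from these counts. Srf, the factor that binds CArG boxes, was higher in AJ at 99.4 CPM against 82.0 CPM in the other strains (log2 fold change 0.28 ± 0.06, adjusted p = 0.000323). Mapk14, the stress kinase p38 alpha, was lower in Cast at 46.7 CPM against 69.0 CPM (-0.56 ± 0.05, adjusted p = 2.62e-14), and Mapkapk2, which it activates, was higher there (log2 fold change 0.48 ± 0.08, adjusted p = 1.93e-07). Of the 12 other AP-1 and ATF partners, 11 were tested, with 2 higher and 1 lower in NOD, 4 lower in 129, 4 higher and 3 lower in Cast and 2 higher and 1 lower in WSB, counts too small to set apart from those shares. Atf5 was lower in 129 at 22.3 CPM against 38.5 CPM (-0.77 ± 0.07, adjusted p = 2.67e-15).

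Across the 11030 tested genes whose mean log2 CPM reached 1 and that had a symbol other than a clone or predicted-gene name, the 10 whose within-strain movement was most like the mean of the 10 members were Btg2 (r = 0.909), Apold1 (0.883), Dusp1 (0.866), Klf2 (0.818), Adamts1 (0.781), Dusp6 (0.684), Cyr61 (0.684), Klf4 (0.68), Rhob (0.679) and Csrnp1 (0.679), over 63 libraries. Of these, 8 were on the wider early gene list, and Apold1 and Adamts1 were not. The lowest coefficients were for Etaa1 (-0.535), Fzd6 (-0.524), Arl14ep (-0.515), Fam84b (-0.509) and Rin2 (-0.506). They are given as descriptions, since the genes were ranked on these libraries.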

How the data were processed

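Heart RNA of 63 mice was sequenced from frozen, pulverised tissue after poly(A) selection with oligo-dT and the addition of ERCC spike-in RNA, per the labels. The authors deposited a table of expected counts per gene (18.4% of values were not whole at a tolerance of 1e-06) and a table of log2 values, which the authors' file gives with a floor of 6.55. GRCm38 and DESeq2 stand in the submitters' processing notes. The aligner, counter and strand setting were not given in the sources used here.

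Here the expected counts were rounded to whole numbers. Genes were kept by edgeR's filterByExpr at a minimum count of 10, which left 16425 genes and removed 2795. Counts were scaled by TMM and fitted with edgeR's robust quasi-likelihood model with 1 coefficient per strain (55 residual degrees of freedom). Tests covered any difference among strains, each strain against the mean of the other 7 strain coefficients, and 28 pairs of strains, with Benjamini-Hochberg adjustment over all genes and a threshold of 0.05. Relations within strains used log2 CPM (prior count 2) minus the strain mean and 2-sided permutation within strains with 100000 resamples. Samples were grouped by the strain in the labels. The labels do not say what a replicate number stands for. Of 199 same-numbered pairs of libraries of different strains, 40 had a correlation over 0.1, as had 168 of 1537 differently numbered pairs. The same-numbered pairs fell short of the criterion for pairing (every pair), so the main fits had no block. The permutations within strains took no account of the number. So strict a criterion does not show that the number is without effect. The permutation p-values therefore assume that libraries of a strain can be exchanged.

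The members and all gene lists were chosen with earlier results of these data known, as was the set of Cast libraries 1, 5 and 6 left out as an alternative. All 10 members are named. Of other lists, at most 3 genes per direction with the largest fold change among those past the test could be named, and the 10 genes most like the members and the 5 least like them were named by correlation. Alternatives covered DESeq2, limma on the deposited log2 values, other filters and scaling, and each library left out. Scripts were tested on simulated counts. Software was R 4.3.3, edgeR 4.0.16, limma 3.58.1, DESeq2 1.42.0, Python 3.11.15, pandas 2.3.3 and scipy 1.17.1. Promoter sequences are RefSeq's.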

Additional observations from a re-analysis of the deposited data

Results flagged for a closer look

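In 3 of 80 groups of libraries (a member within a strain) 1 library lay far from the rest on the log2 scale by Dixon's criterion, where chance alone marks about 1 in 20 groups. Jun was at 64.4 CPM in NZO_1, below 82.9 to 99.02 CPM in the other 7 NZO libraries. Atf3 was at 8.93 CPM in NOD_5, below 18.2 to 26.01 CPM in the other 7 NOD libraries. Ier3 was at 20.6 CPM in 129_7, above 11.6 to 14.6 CPM in the other 7 libraries of that strain.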

How the results depend on the processing

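Of the 34 calls of a member in a strain, 21 passed in each of the 63 fits that left out a library, 18 passed under every alternative run, and 0 changed sign. The number of calls ran from 30 to 38 and the number of strain pairs past the test from 95 to 113 with 1 library left out, and all 10 members differed among strains each time. It was 37 with DESeq2, 29 with limma on the deposited log2 values and 33 without Cast libraries 1, 5 and 6, and strain pairs past the test numbered 113, 94 and 94. With a replicate block there were 38 calls, 108 strain pairs and 35 related pairs of members, against 34, 103 and 37 without it. The calls gained with the block were Jun in B6 and NOD and Egr1 in NZO and WSB, and the pairs of members lost were Atf3 with Junb and with Ier2. Deviations of same-numbered libraries of different strains correlated at a median of 0.0493 (from -0.162 to 0.377, 40 of 199 pairs over 0.1), and those of differently numbered libraries at -0.00959 (from -0.295 to 0.353, 168 of 1537 pairs over 0.1). Of the 63 libraries, 14 matched best with their own number, a hint from the data and not from the design. Without 129_7, an alternative chosen after the data were seen, the heat shock genes higher in 129 numbered 1, against 4 with it. In some setting 10 further calls passed. Depth did not limit the members, whose lowest count was 17.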

Other observations

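Levels also differed by the number that a library carries within its strain. Fos lay below its strain mean in 7 of 8 libraries numbered 1 (mean deviation -0.85 on the log2 scale) and 7 of 7 numbered 5 (-0.78). It lay above in 8 of 8 numbered 3 (0.80) and 6 of 8 numbered 7 (0.68). Egr1 lay below in 7 of 8 numbered 1 (-0.79) and 6 of 7 numbered 5 (-0.73), and above in 8 of 8 numbered 3 (0.71) and 7 of 8 numbered 7 (0.75). These numbers were chosen after their values were seen, the labels do not say what a number stands for, and no test was made.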
